A study of Homo sapiens with 6 samples.

Results

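The insulin-like growth factor binding proteins (IGFBPs) are 7 secreted proteins, encoded by IGFBP1 to IGFBP7, whose transcripts were followed here in MDA-MB-231 cells with and without siRNA against LSD1. All 16 probe sets that the platform annotation assigns to exactly 1 of the 7 symbols were taken, of 54675 probe sets on each array and 41091 with 1 gene symbol. MDA-MB-231 is an estrogen receptor-negative human breast cancer cell line. LSD1, the product of KDM1A, is a demethylase of histone H3 lysine 4. The groups were cells transfected with control siRNA (3 biological replicates) and cells transfected with LSD1 siRNA (3 biological replicates), with RNA taken after 6 days and 2 rounds of transfection. All 6 arrays come from this 1 cell line, and the siRNA sequences are not given in the sources used here.

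IGFBP1 to IGFBP6 bind the insulin-like growth factors IGF1 and IGF2 tightly and set how much ligand reaches the type 1 receptor, IGF1R; IGFBP7 binds them weakly and is a matrix-associated protein. Proteases such as PAPPA cut the binding proteins and release the ligand. Several family members also act on adhesion and growth without IGF, and breast cancer cells secrete a mixture of them.

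KDM1A, the targeted gene, had signals of 2540, 2493 and 2295 on the control arrays and 291, 184 and 228 on the LSD1 siRNA arrays, and its mean with LSD1 siRNA was 9.58% of control. The trimmed mean signal was 500.1 on every array, so a common scaling was already in the values, and the small number of arrays, 3 a group, limits the precision; over all genes the log2 changes had a median standard error of 0.11. Of the basal and mesenchymal line markers, VIM, CD44, EGFR and CAV1 were bright, the lowest signal being 3755 (EGFR), SPARC lay between 8.69 and 68.4, and 1 of the 5, EGFR, fell. ESR1, the estrogen receptor gene, lay between 48.0 and 95.2, and 1 of 6 luminal markers, KRT18, fell. KRT18 was also bright, between 11733 and 18689, and GATA3 lay between 456 and 565. For PGR, CDH1 and FOXA1 the highest signal was 249 (FOXA1). The ACTB 3' to 5' signal ratio was 1.74 on control array 1 and between 1.33 and 1.43 on the other 5. In bulk RNA, a change in the number of cells of a kind and a change in RNA per cell cannot be told apart.

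Within the family, IGFBP7 and IGFBP6 rose, IGFBP4 fell, IGFBP1 and IGFBP3 did not pass the test, and IGFBP2 and IGFBP5 gave little signal. Signals were taken as log2(signal + 15) and compared with limma over all genes, 1 probe set per gene, with Benjamini-Hochberg adjustment and a threshold of 0.05; this scale understates changes of dim genes. Genes were tested where their mean was above a signal of about 28.0, and 6 of the 7 members were. Of these 6, 2 rose and 1 fell. Over all 13822 genes tested, 41.0% passed, 19.8% higher and 21.3% lower, so 3 of 6 is near the background. For 4 of the 6 members, and for 50.4% of all genes tested, every array of 1 group lay on the same side of every array of the other. The members' median log2 change was 0.13, beside -0.02 for all genes. No member moved by more than 0.49 in either direction, and 25.6% of the genes tested moved by more than that.

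**Figure D1:**
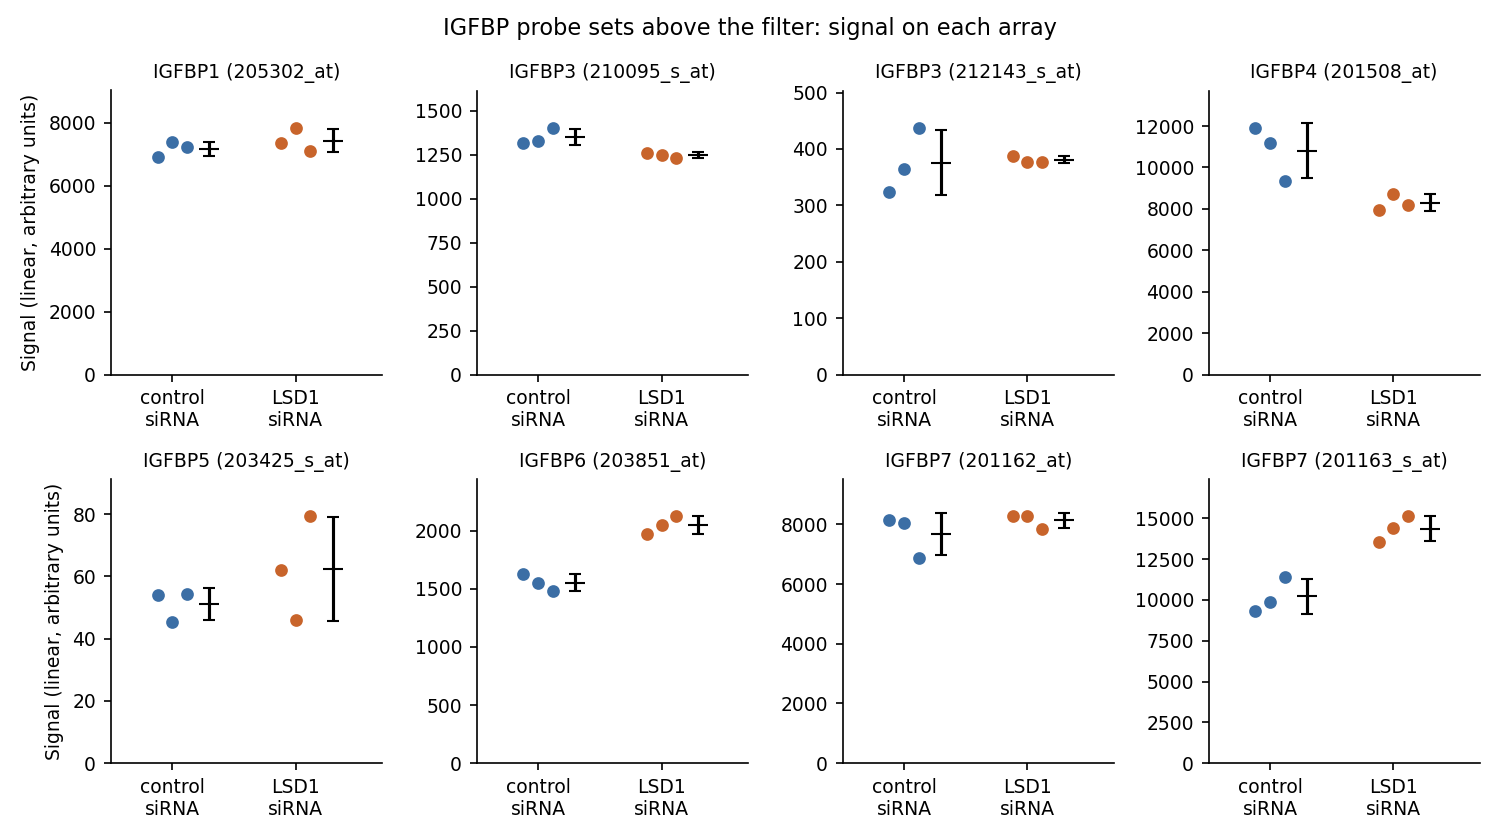
Signal on each array (linear, arbitrary units, axis from 0) for the 8 IGFBP probe sets above the filter. Points are arrays, and bars are the mean and SD of 3 arrays. IGFBP6 and the IGFBP7 probe set 201163_s_at lay higher on all LSD1 siRNA arrays, IGFBP4 lay lower on all of them, and IGFBP1 overlapped between the groups.

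Promoter sequences from RefSeq (GRCh38.p14) matched 5 of the 7 members; IGFBP1 and IGFBP7 are the others. The 250 bases upstream of the start are shown for IGFBP6, which rose, IGFBP4, which fell, and IGFBP3, which did not pass the test. Capitals mark matches on either strand to any of 5 motifs. The TATA box was searched as TATAAA. The GC box, known to bind SP1, was searched as GGGCGG. The CCAAT box was searched by the letters of its name. The E-box known to bind SNAI repressors was searched as CAGGTG. The AP-1 site was searched as TGANTCA. No matches of different motifs overlapped in the members' windows.
IGFBP6 (chr12:53097417-53097666, plus strand): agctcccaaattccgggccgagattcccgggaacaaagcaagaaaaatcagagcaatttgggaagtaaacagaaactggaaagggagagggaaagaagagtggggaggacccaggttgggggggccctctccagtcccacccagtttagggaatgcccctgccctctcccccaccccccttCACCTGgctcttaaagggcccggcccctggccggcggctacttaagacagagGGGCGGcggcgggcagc
IGFBP4 (chr17:40443200-40443449, plus strand): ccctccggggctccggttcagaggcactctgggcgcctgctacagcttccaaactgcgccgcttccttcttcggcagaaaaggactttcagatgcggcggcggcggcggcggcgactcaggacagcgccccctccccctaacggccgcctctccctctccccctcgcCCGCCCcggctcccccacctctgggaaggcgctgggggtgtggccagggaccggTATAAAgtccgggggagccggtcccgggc
IGFBP3 (chr7:45921273-45921522, minus strand): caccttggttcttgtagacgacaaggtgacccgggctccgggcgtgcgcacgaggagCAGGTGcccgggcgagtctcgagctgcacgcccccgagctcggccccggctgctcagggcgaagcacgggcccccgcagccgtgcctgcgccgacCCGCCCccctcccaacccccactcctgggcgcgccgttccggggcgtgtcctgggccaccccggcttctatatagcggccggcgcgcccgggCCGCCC
Among these 3 windows the exact letters TATAAA were found in IGFBP4 alone, with their first base at position -29 from the start. Of 35116 such windows, 10.7% hold them. Variants of the TATA box were not searched, and the IGFBP3 window holds the variant letters tatata. The SNAI E-box was found in IGFBP6 (position -69) and IGFBP3 (position -193) and not in IGFBP4, against 17.5% of all windows. Among the member windows not printed, a window of IGFBP2 held it (position -208). The other IGFBP2 windows and that of IGFBP5 did not. A link between this motif and the changes was not tested. A GC box was present in all 3, as in 42.6% of all windows. None held a CCAAT box (32.0% of windows) or an AP-1 site (6.57%). The windows held 9 CpG pairs in IGFBP6, 24 in IGFBP4 and 32 in IGFBP3, beside a median of 11. These matches describe letters only; no binding was measured.

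IGFBP7 encodes a secreted matrix protein, also known from blood vessels, that binds insulin and, weakly, the IGFs. On probe set 201163_s_at its signal was 9342, 9884 and 11425 on the control arrays and 13572, 14384 and 15130 on the LSD1 siRNA arrays. All 3 LSD1 siRNA arrays were above all 3 control arrays. The means were 10217 ± 1081 and 14362 ± 779 (SD, n = 3), a ratio of 1.41. On the log2 scale IGFBP7 rose by 0.49 (standard error 0.08, limma adjusted p = 0.000357).

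The other bright IGFBP7 probe set, 201162_at, did not pass. It gave 8140, 8034 and 6860 with control siRNA and 8281, 8281 and 7845 with LSD1 siRNA, and these groups overlapped. Its log2 change was 0.09, with a 95% interval from -0.07 to 0.25 (adjusted p = 0.404 over all probe sets, limma). Control array 3 was the highest control array on 201163_s_at and the lowest on 201162_at. The log2 difference between these probe sets averaged 0.41 ± 0.29 in the controls and 0.82 ± 0.12 after knockdown (SD, n = 3). Its change of 0.41 gave p = 0.2 in an exact two-sided permutation test, where 0.1 is the smallest that 3 against 3 arrays allow. The third set, 213910_at, lay between 3.14 and 21.7 on all arrays. With the mean of all 3 probe sets, the dim one included, IGFBP7 was at 0.17 and did not pass (adjusted p = 0.238, limma).

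Since IGFBP7 is abundant in endothelium, endothelial markers were set beside it. Of 9 markers, 4 were above the filter. ESAM (0.42) and ROBO4 (0.57), an adhesion and a guidance receptor gene, rose. PECAM1 (-0.10) and KDR (-0.35) were lower and did not pass (limma adjusted p = 0.699 and 0.378). CDH5, VWF, TEK, TIE1 and CLDN5 were below the filter, the highest signal among them being 48.0 (VWF). The summed signal of the 9 markers ran from 2543 to 2700 with control siRNA and from 3320 to 3593 with LSD1 siRNA. Most of this sum was ESAM (means 1867 with control and 2499 with LSD1 siRNA) and ROBO4 (451 and 676). It therefore does not describe the 9 markers as a set. Of 9 fibroblast markers 5 were tested and 0 passed in limma, with 0 at an unadjusted p under 0.05. The sum of the 9 ran from 632 to 784 in the controls and from 672 to 880 after knockdown. COL1A1 was the largest part of this sum, with means of 491 and 450, so the sum does not describe the 9 as a set. COL3A1, LUM, PDGFRA and FAP were below the filter and have no test. LUM gave 4.58, 0.60 and 0.52 with control siRNA and 98.3, 86.3 and 101.0 with LSD1 siRNA, while FAP gave 33.0, 43.8 and 51.3 against 5.84, 3.05 and 5.25. In these 2 dim genes the groups did not overlap, in opposite directions, and 50.4% of all genes tested did not overlap either. Of 9 leukocyte markers 4 were tested and 0 passed in limma, with 1 at an unadjusted p under 0.05; their sum ran from 260 to 280 and from 264 to 301. The part of other cells in the IGFBP7 result was not tested.

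IGFBP6, which prefers IGF2 over IGF1, has 1 probe set. Its signal was 1624, 1552 and 1476 with control siRNA and 1972, 2048 and 2124 with LSD1 siRNA. The groups did not overlap, and the spread within each was small beside the distance between them. The means were 1551 ± 73.9 and 2048 ± 76.0 (SD, n = 3), a ratio of 1.32. On the log2 scale IGFBP6 rose by 0.40 (standard error 0.07, limma adjusted p = 0.000463), with a 95% interval from 0.25 to 0.54.

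IGFBP4, which restrains IGF action and is the main substrate of PAPPA, also has 1 probe set. It gave 11927, 11205 and 9328 with control siRNA and 7932, 8734 and 8200 with LSD1 siRNA. Every LSD1 siRNA array was below every control array, and the control arrays spread more widely. The means were 10820 ± 1342 and 8288 ± 408 (SD, n = 3), which is 76.6% of control. On the log2 scale this is -0.38 (standard error 0.09, limma adjusted p = 0.00394). Without moderation of the variances its adjusted p was 0.0801. In the RefSeq table, IGFBP4 lies next to TOP2A, which encodes a DNA topoisomerase.

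IGFBP1, a binding protein known from liver, where insulin lowers it, has 1 bright and 1 dim probe set. The bright one, 205302_at, gave 6912, 7368 and 7211 with control siRNA and 7347, 7839 and 7096 with LSD1 siRNA. The groups overlapped. Its log2 change was 0.05, with a 95% interval from -0.08 to 0.18 (limma adjusted p = 0.547). The dim one, 237989_at, lay between 1.53 and 13.6. The hepatocyte markers ALB, APOA1 and APOB were below the filter, and SERPINA1, a protease inhibitor gene, rose by 1.21. TTR (0.02) and FGB (0.58) did not pass (limma adjusted p = 0.983 and 0.102). The summed signal of the 6 hepatocyte markers ran from 172 to 315 with control siRNA and from 449 to 489 with LSD1 siRNA. SERPINA1 was the largest part of this sum, with means of 101 and 254. The part of these markers in the IGFBP1 values was not tested.

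IGFBP3, the main carrier of IGFs in blood and also a p53 target, has 2 probe sets above the filter. On 210095_s_at the signal was 1317, 1330 and 1405 with control siRNA and 1263, 1251 and 1234 with LSD1 siRNA. All LSD1 siRNA arrays were lower, by little. The log2 change was -0.11, with a 95% interval from -0.26 to 0.03 (limma adjusted p = 0.207). Probe set 212143_s_at gave 324, 365 and 438 with control siRNA and 388, 377 and 377 with LSD1 siRNA, which overlapped, and its log2 change was 0.03 (adjusted p = 0.887). The change in the log2 difference between these sets was -0.14, with p = 0.4 in an exact two-sided permutation test. IGFBP1 and IGFBP3 are neighbouring genes on chromosome 7 in the RefSeq table.

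IGFBP5, a matrix-binding member, and IGFBP2, which carries an integrin-binding motif, are neighbouring genes on chromosome 2 and were both dim. Of 6 IGFBP5 probe sets, 203425_s_at alone was above the filter. It gave 54.1, 45.4 and 54.2 with control siRNA and 62.1, 45.9 and 79.4 with LSD1 siRNA, and the groups overlapped. Its log2 change was 0.21, with a wide 95% interval from -0.38 to 0.79 (limma adjusted p = 0.581). The only IGFBP2 probe set gave 1.34, 26.8 and 7.78 with control siRNA and 4.03, 3.31 and 3.25 with LSD1 siRNA, all below the filter. No detection calls were used, so these values bound neither gene's expression. Antisense transcripts named after the family were dim too, with IGFBP7-AS1 between 0.87 and 27.4 and IGFBP-AS1 between 2.09 and 30.8.

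**Figure D2:**
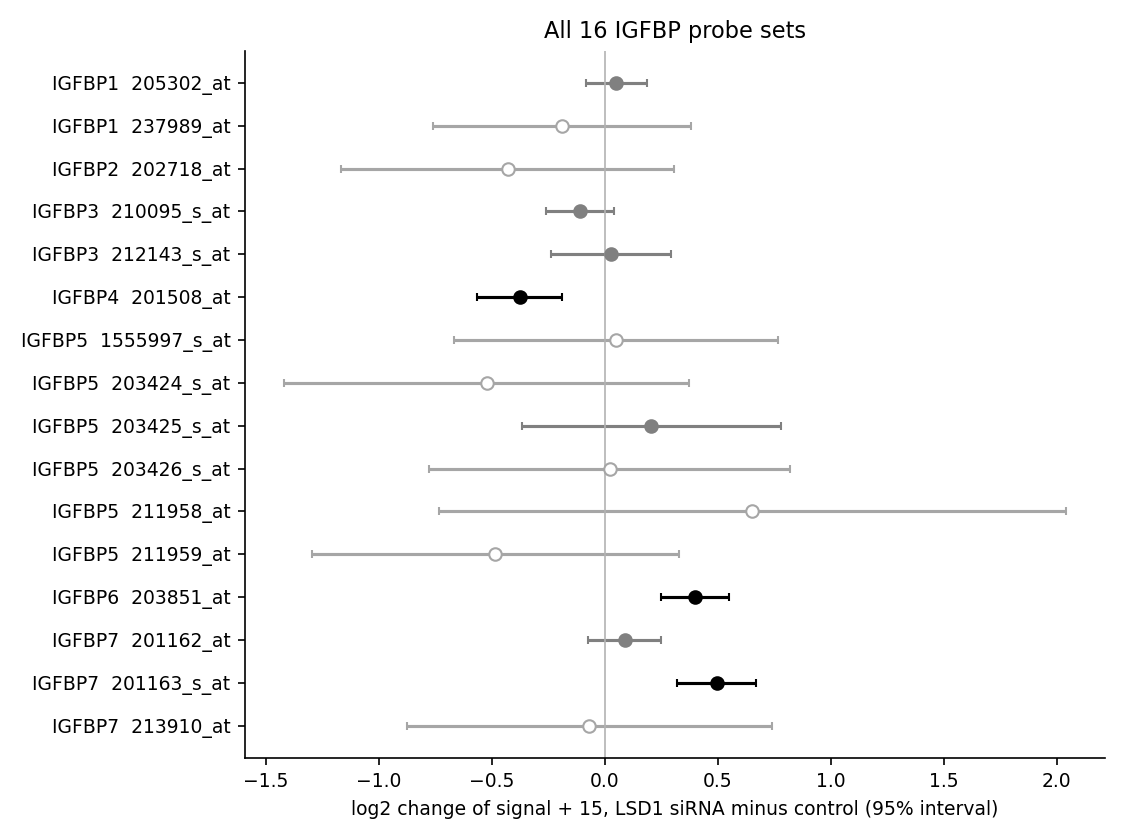
Log2 change of signal + 15, LSD1 siRNA minus control, with 95% intervals, for all 16 IGFBP probe sets. Black points passed the test over all probe sets, grey filled points did not, and open points lay below the filter and are drawn from a fit without it. IGFBP7 201163_s_at (0.49), IGFBP6 (0.40) and IGFBP4 (-0.38) stand clear of 0.

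Tested probe set by probe set, 8 of the 16 were above the filter and 3 passed, where 34.4% of 27079 probe sets passed. The 8 below the filter had signals from 0.72 to 65.2. The members that passed were bright in both groups, so none entered the test through 1 group alone.

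The genes whose 6 log2 values, taken relative to the control mean, lay nearest to a member's were found by the root mean square difference over the 6 arrays. For IGFBP7 these were ZNHIT6 (difference 0.02), GPC6 (0.03) and ATP1B1 (0.04). For IGFBP6 they were KDM3A, a demethylase of histone H3 lysine 9 (0.03), EMC3 (0.03) and ST13 (0.03). For IGFBP4 they were RPL35A, TOR3A and NXT1 (0.03 each). Each of the 9 also passed the gene test. They were picked for likeness to members that had passed on the same arrays, so this adds no support. The likeness is a description over 6 arrays.

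Beside the binding proteins, genes of the surrounding pathway moved both ways. Of 88 genes in 8 lists, 70 were tested, 20 rose and 12 fell, which is 45.7% beside 41.0% of all genes. C1S alone among those that passed had a group mean below the filter. Of the ligands, IGF1 and INS were below the filter and IGF2 had no probe set with 1 symbol. IGF1 lay between 4.40 and 39.2 with control siRNA and between 30.5 and 60.3 with LSD1 siRNA.

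All 3 measured receptors passed, where 41.0% of all genes tested did. IGF1R, the signalling receptor of the IGFs, went from 934 ± 55.2 to 747 ± 33.7 (SD, n = 3), or -0.32 on the log2 scale. Of its 5 probe sets 2 fell, and the others ranged up to 0.26 without passing; the mean of the 5 was -0.25 (adjusted p = 0.0858, limma). INSR, the insulin receptor gene, fell by 0.64, in 3 of 4 probe sets tested. IGF2R, which takes up IGF2 and sends it to lysosomes, rose from 2186 ± 197 to 2909 ± 244 (SD, n = 3), or by 0.41 on the log2 scale, in 1 of 3 probe sets; the mean of the 3 was 0.27. Without moderation of the variances, INSR (adjusted p = 0.0812) and IGF2R (0.0502) missed the threshold.

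Of 11 receptor adaptors, 1 rose and 3 fell, which is 36.4% beside 41.0% of all genes. IRS2, a docking protein of both receptors, fell by 0.75, from 3304 ± 140 to 1958 ± 58.0 (SD, n = 3), while its relative IRS1 was at -0.09 and did not pass. GRB10, an inhibitory adaptor, changed by -0.48 and SH2B1 by -0.65, and SHC1, an adaptor toward RAS, rose by 0.52. Of 17 measured PI3K, AKT, FOXO and mTOR genes, 2 rose and 3 fell: FOXO3, a transcription factor that AKT inhibits, changed by -0.64, AKT1 by -0.40 and RPTOR by -0.50, while PIK3R3 rose by 0.40 (adjusted p = 0.0544 unmoderated; 0.64 as the mean of its probe sets) and RHEB by 0.33. Averaged over all probe sets, GRB10 was at -0.23 (adjusted p = 0.0824) and RHEB at 0.04 (adjusted p = 0.721), and neither passed.

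Of 22 measured IGFBP proteases and stanniocalcins, 11 rose and 1 fell, which is 54.5% beside 41.0% of all genes. Over all genes 19.8% rose and 21.3% fell. The median log2 change of the list was 0.45, beside -0.02 for all genes. Without C1S these are 21 genes, 10 that rose and a median of 0.42. PAPPA, the metalloprotease that cuts IGFBP4, gave 96.4, 138 and 116 with control siRNA and 1071, 992 and 1004 with LSD1 siRNA. The groups stood far apart, with a ratio of means of 8.77 and a log2 change of 2.99. Of its 11 probe sets 6 were tested and 5 rose, by 1.41 to 2.99; the other was at 0.64. The mean of all 11 probe sets, dim ones included, was smaller, at 1.28 (adjusted p = 0.000208, limma). STC1, a stanniocalcin that inhibits PAPPA, rose too, from 466 ± 12.1 to 2122 ± 218 (SD, n = 3), a change of 2.15, in all 3 of its probe sets. MMP1 rose by 2.58 and PLAT, the tissue plasminogen activator gene, by 0.78. HTRA1, a protease that carries an IGFBP domain itself, was the gene that fell, by 0.33. It missed the threshold when control array 1 (adjusted p = 0.0973), LSD1 siRNA array 2 (0.0764) or LSD1 siRNA array 3 (0.0612) was left out, and under both other variance models (0.0515 and 0.0857). C1R (0.87) and PAPPA2 (0.69), which also act on IGFBP5, rose and were named after their values were seen. C1S gave 40.8, 3.54 and 4.57 with control siRNA and 278, 237 and 295 with LSD1 siRNA; its control mean was below the filter, so it was tested only through the LSD1 siRNA arrays and its fitted change is given no size here.

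Of 8 measured partners of the binding proteins, 2 rose and 1 fell, which is 37.5% beside 41.0% of all genes. The fibronectin gene FN1 rose by 0.82. Of its 7 probe sets 5 rose, the others did not pass, the lowest being at 0.18, and the mean of the 7 was 0.60. ITGA5, a subunit of the fibronectin receptor to which IGFBP1 binds, rose by 0.88. PHB2, reported as a partner of IGFBP6, changed by -0.23. It missed the threshold when control array 2 (adjusted p = 0.0616), LSD1 siRNA array 1 (0.0523) or LSD1 siRNA array 2 (0.0502) was left out, and under both other variance models (0.0583 and 0.0556). TMEM219, a receptor of IGFBP3, was at 0.12 and did not pass. IGFALS, the third part of the IGF and IGFBP3 complex in blood, was below the filter.

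Of 9 measured relatives that share the IGFBP domain, 2 rose and 2 fell, which is 44.4% beside 41.0% of all genes. IGFBPL1, named for its likeness to the family, gave 1560, 1361 and 1216 with control siRNA and 690, 736 and 648 with LSD1 siRNA. These groups did not overlap, and the change was -0.98. CCN3, a matricellular growth regulator, rose by 1.27 in its 2 probe sets and CCN2 by 0.49, while CCN1 was at 0.10 and did not pass. HTRA1 is the other gene that fell. The IGF2 mRNA-binding proteins share only part of a name with the IGFBPs: IGF2BP3 went from 1903 ± 35.2 to 4211 ± 147 (SD, n = 3) and rose by 1.14, with 3 of its 4 probe sets passing. The fourth was at -0.88, in the opposite direction (adjusted p = 0.0580, limma), and the mean of all 4 was 0.62. IGF2BP2 fell by 0.41 in 1 of 2 probe sets. IGF2BP1 was below the filter, and the mean of the IGF2BP2 probe sets was -0.12 (adjusted p = 0.651, limma).

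**Figure D3:**
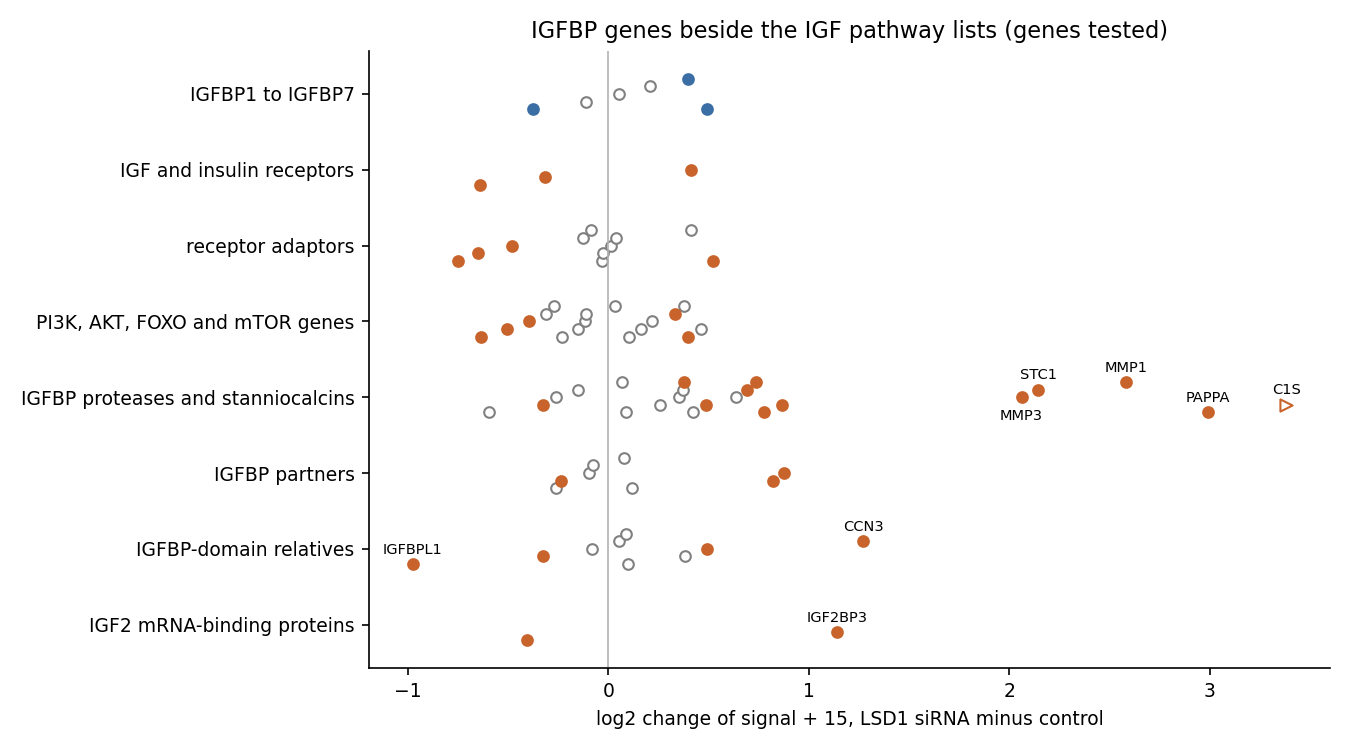
Log2 change of signal + 15, LSD1 siRNA minus control, for the 6 IGFBP genes tested and the 70 tested genes of the pathway lists (HTRA1 and HTRA3 are in 2 lists). Filled points passed the test over all genes, and open circles did not; the open triangle is C1S, whose control mean was below the filter, so that its place is not a measured size. All IGFBP genes lie within 0.49 of 0, while PAPPA, STC1, MMP1 and MMP3 lie above 2.

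Across the 16 processing alternatives IGFBP6 stayed higher and past the threshold, with changes from 0.36 to 0.43. IGFBP4 stayed lower, from -0.48 to -0.30, and lost its call in the unmoderated test. IGFBP7 stayed higher, from 0.17 to 0.58, and lost its call with the mean of all probe sets.

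**Figure D4:**
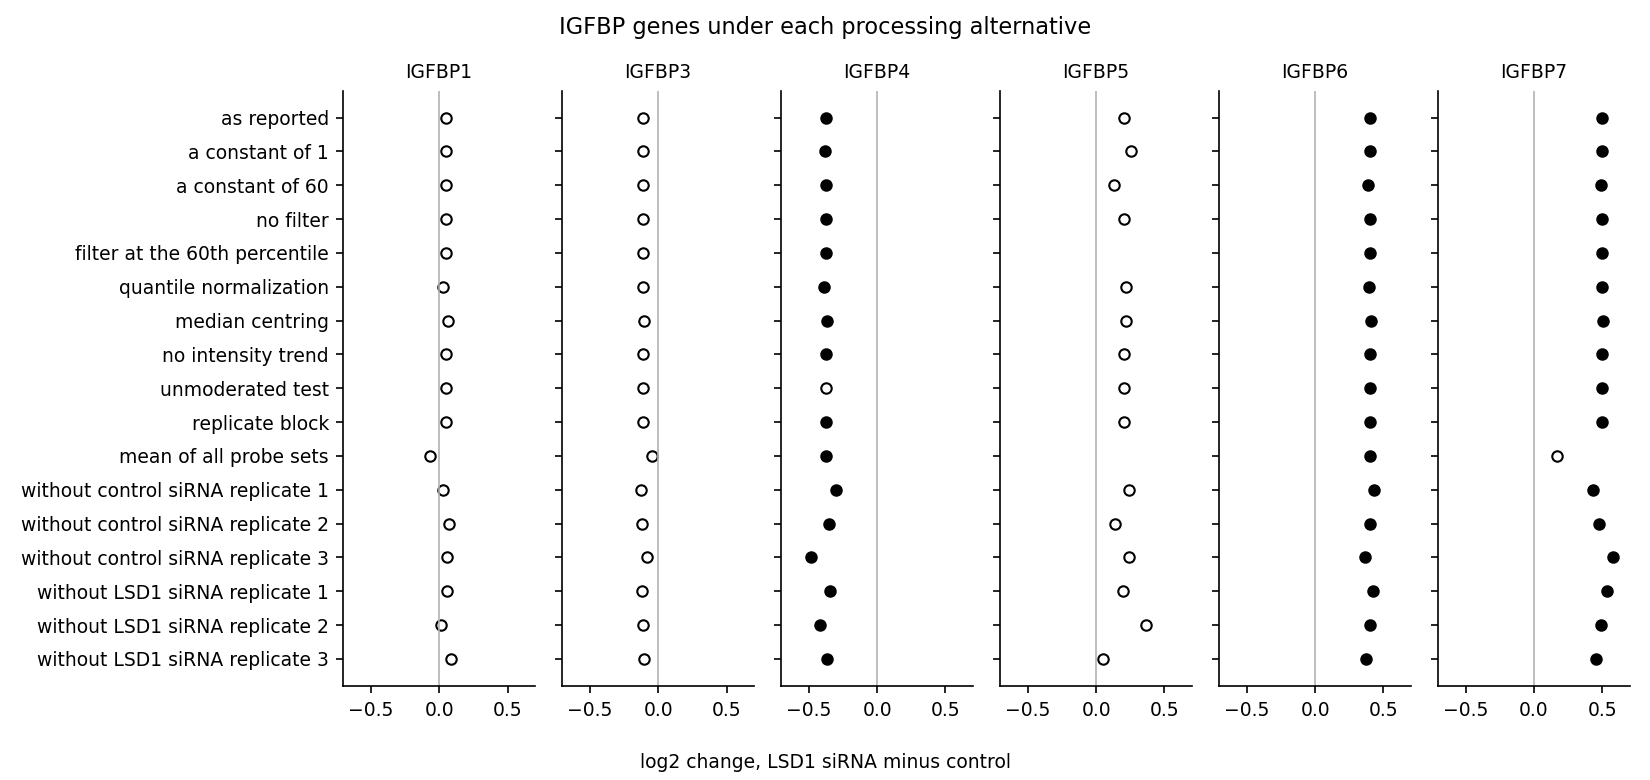
Log2 change, LSD1 siRNA minus control, of the 6 IGFBP genes tested, as reported and under each of 16 alternatives. Filled points passed the threshold. IGFBP6 is filled in every row, and IGFBP4 and IGFBP7 in all but 1; IGFBP5 has no point where it fell below the filter.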

How the data were processed

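Total RNA (2.5 ug per array) of 3 control siRNA and 3 LSD1 siRNA cultures was measured on Affymetrix arrays. The authors deposited linear signal intensity values; GCOS, Affymetrix Expression Console 1.1 and MAS5 are named per the submitters' processing notes, with no role stated. Such signals are noisy when dim, and scaling removes differences in total RNA. Of 54675 probe sets, 41091 have 1 symbol, 1801 several and 11783 none or are controls; 41043 matched a RefSeq table used for names and neighbours.

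Values were log2(signal + 15), 15 being the rounded 25th percentile of all signals. Each gene was represented by its brightest probe set (x sets last), and means above the 40th percentile were kept. limma 3.58.1 in R 4.3.3 (lmFit, eBayes with trend, two-sided, Benjamini-Hochberg over all features) tested 13822 genes and, separately, 27079 probe sets. The limma code was tested on simulated data. The members and lists were chosen with earlier results of these data known. Named genes are KDM1A, the members, the 3 nearest genes of each member that passed, and up to 4 genes per list with the smallest p, or all in lists of 4 or fewer measured; C1S, C1R, PAPPA2, RPTOR, IRS1, IGF1, INS, TMEM219, IGFALS, CCN1, MMP3, HTRA3, the antisense and neighbouring genes and the marker genes were added after their values were seen. A planned comparison of protein sequences was not made. Alternatives covered the constant, filter, normalization, variance model, replicate block, probe set summary and leaving out each array. Figures used matplotlib 3.10.9.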

Additional observations from a re-analysis of the deposited data

How the results depend on the processing

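Leaving out each array in turn kept 3 members past the gene test each time, with IGFBP7 from 0.43 to 0.58, IGFBP6 from 0.36 to 0.43 and IGFBP4 from -0.48 to -0.30. IGFBP4 had an adjusted p of 0.0801 in the unmoderated test (change -0.38), and in the test of single probe sets 0.0560 with no intensity trend and 0.0927 unmoderated. With the mean of all probe sets IGFBP7 was at 0.17 (adjusted p = 0.238) and IGFBP1 at -0.068 (adjusted p = 0.700), a turned direction, and 2 members passed; each mean includes a dim probe set. IGFBP3 probe set 212143_s_at, never past the threshold, ranged from -0.069 to 0.14 when single arrays were left out and was below 0 without control replicate 1. The replicate block left IGFBP7 at 0.49 (limma adjusted p = 0.000225) with 3 members called. The labels give arrays of the 2 groups the same numbers and do not say whether they were paired. Correlations of the deviations of same-numbered arrays over genes were 0.01, -0.01 and 0.02. Between arrays of different number they ran from -0.03 to 0.02. With 3 arrays a group these values cannot show whether the arrays were paired. IGFBP5 has no value with the filter at the 60th percentile or when its probe sets are averaged, and IGFBP2 was tested only without a filter, at -0.43 (adjusted p = 0.457 among probe sets). Between 23 and 35 pathway genes passed, against 32 as reported. Of the 24 related genes named by rule, 15 kept their direction and call under every alternative, 9 lost the call under 1 or more, and 0 turned direction. Most of the 24 were named for the smallest p in the main test, so these counts do not describe the lists as a whole. Dim signals limit IGFBP2 and IGFBP5.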
